A study of Mus musculus with 6 samples.

Results

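The mitochondrial chaperones and proteases are the proteins that fold, unfold and degrade polypeptides inside mitochondria, and 10 of their genes were followed here in 3T3-L1 adipocytes: Hspd1, Hspe1, Hspa9, Trap1, Dnaja3, Lonp1, Clpp, Clpx, Yme1l1 and Afg3l2. A gene was measured where the array annotation gave a row of the table to that gene alone, which held for 8 of the 10, among 14860 genes measured in this way. Hspd1 and Hspe1, which encode the subunits of the mitochondrial chaperonin, were not measured, since no row used here is annotated to them. The LCM cultures were 3T3-L1 adipocytes kept for 24 hours in leukemia cell conditioned media (LCM), and the controls were adipocytes in regular media, with 3 biological replicates per group and 1 array each. 3T3-L1 is a mouse pre-adipocyte line. All cultures were of fewer than 6 passages and had been differentiated for 7 days with an adipogenic cocktail. The sample labels name 8093 cells, a murine ALL line, as the source of LCM, grown for 48 hours in RPMI1640 with 10% FBS, IL-3 and BME, whereas the methods name BV173 cells, a human ALL line. For the adipocytes themselves the labels name RPMI1640 with FBS and the methods, for 3T3-L1 culture in general, high glucose DMEM with FBS. Which of these the regular media of the control arrays were is not stated in the sources read, so the products of the leukemia cells, the additives and the base media cannot be told apart as differences between the groups.

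Most mitochondrial proteins are made in the cytosol and threaded unfolded through the mitochondrial membranes, so that folding and quality control take place inside the organelle. The matrix holds an HSP70 with its J-domain partner, a barrel-shaped chaperonin and ATP-driven proteases, and further proteases sit in the inner membrane. When unfolded protein builds up in mitochondria, cells can raise the nuclear genes of these chaperones and proteases, which is called the mitochondrial unfolded protein response (UPRmt). It was worked out in the worm Caenorhabditis elegans, and in mammalian cells the transcription factors CHOP, ATF4 and ATF5 have been linked to it. The question put to these arrays was whether genes of this response were higher in LCM adipocytes than in control adipocytes.

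Of the 8 members measured, Lonp1 and Dnaja3 rose in LCM and none fell (adjusted p under 0.05 from limma, n = 3 per group). Over all 14860 genes, 4.26% passed by the same test, of which the genes that rose were 2.29% and those that fell 1.97% of all. At an unadjusted p under 0.05, Hspa9 and Clpp were also higher in LCM, which made 4 members of 8 higher and 0 lower, against 9.25% of all genes higher and 10.3% lower. The methods' t-test, which is paired (here by replicate number), gave 3 members higher and 0 lower without adjustment, against 5.98% of all genes higher and 5.87% lower. Its unpaired form, which the methods do not name, gave 3 higher and 1 lower, against 8.26% and 9.26%. Trap1, Clpx, Yme1l1 and Afg3l2 had log2 differences between -0.15 and 0.08. The median log2 difference of the 8 members was 0.19, beside -0.03 over all genes tested. Without control replicate 2 it was 0.11 (-0.04 over all genes), and with array weights 0.13. The values are log2 expression after RMA, so a difference of 1 would be a doubling, and levels of different genes are not compared because each gene has its own probes.

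**Figure D1:**
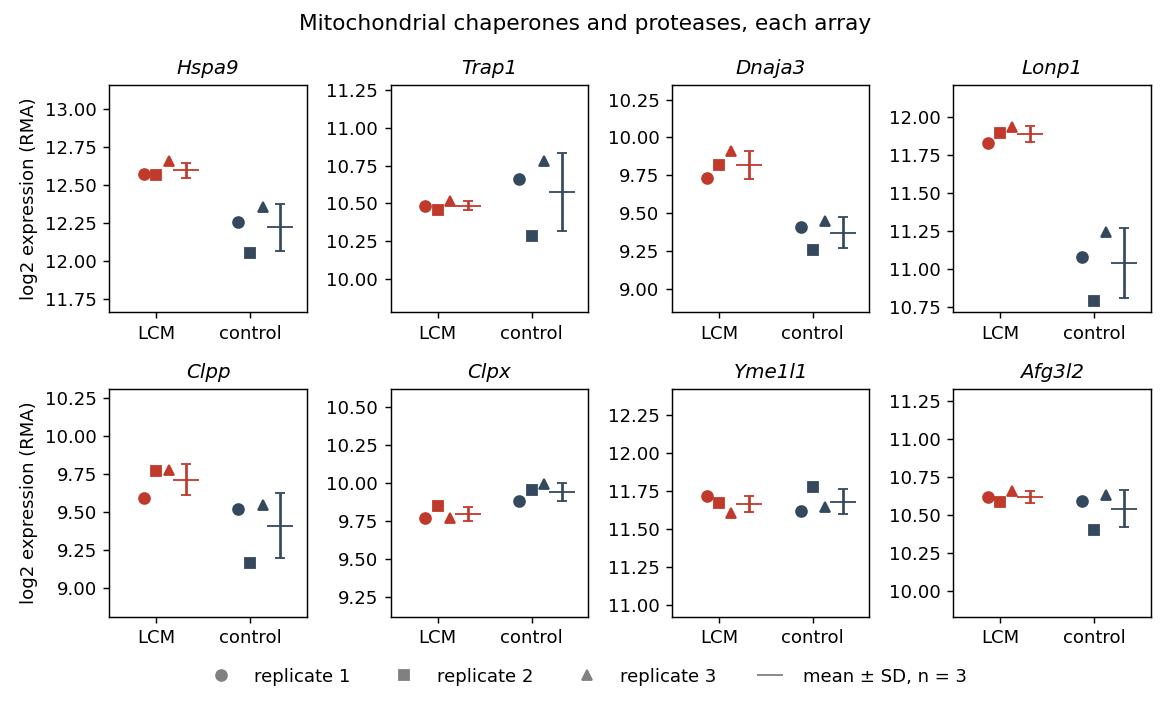
The plot shows the log2 expression (RMA) of the 8 measured members on each array, with LCM left of control in every panel, a symbol for each replicate, and the mean with its SD beside the points (n = 3). All panels span the same log2 range. For Lonp1 the LCM arrays lay between 11.83 and 11.94 and the control arrays between 10.79 and 11.25.

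Lonp1 encodes the ATP-dependent Lon protease of the mitochondrial matrix, which degrades misfolded and oxidized proteins. Its log2 expression was 11.83, 11.90 and 11.94 in the LCM arrays and 11.08, 10.79 and 11.25 in the control arrays. The groups did not overlap, with the highest control at 11.25 and the lowest LCM array at 11.83. Lonp1 rose 1.80-fold in LCM (log2 difference 0.85, standard error 0.12, 95% interval 0.57 to 1.13, adjusted p = 0.0132 from limma). Its mean was 11.89 ± 0.05 in LCM and 11.04 ± 0.23 in control (SD, n = 3 each). Control replicate 2 was the lowest control, and without it Lonp1 rose 1.65-fold (adjusted p = 0.00745). Without control replicate 3 the adjusted p was 0.0195. With fewer arrays the call was lost without control replicate 1 (adjusted p = 0.0544) and without LCM replicates 1, 2 and 3 (adjusted p = 0.0598, 0.0732 and 0.0748), with log2 differences from 0.73 to 0.95 over the 6 subsets that leave out 1 array. It was also lost with the methods' t-test after adjustment, paired (0.350), and its unpaired form (0.0844).

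Dnaja3 encodes a J-domain co-chaperone, also known as Tid1, that delivers unfolded proteins to the matrix HSP70. Its log2 expression was 9.73, 9.82 and 9.91 in LCM and 9.41, 9.26 and 9.45 in control. Every LCM value lay above every control value here too. Dnaja3 rose 1.37-fold (log2 difference 0.45, standard error 0.09, 95% interval 0.25 to 0.65, adjusted p = 0.0350 from limma). This call held without control replicate 2 (adjusted p = 0.0306) and was lost without control replicate 1 (0.0977), control replicate 3 (0.0622) and LCM replicates 1, 2 and 3 (0.0928, 0.152 and 0.154). It was also lost with each array centred on its median (0.0647), over every row of the table (0.0869), with the replicate block (0.0749) and with the methods' t-test after adjustment, paired (0.353), and its unpaired form (0.0961).

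The promoters of Lonp1 and Dnaja3 are shown because these were the members that rose. Each window runs from 250 bases before to 50 bases after the start that RefSeq annotates, 5′ to 3′ on the strand of the gene in the mouse build GRCm38.p6. Capitals mark matches, on either strand, to the letters searched for.
Lonp1, chr17:56626854-56627153, minus strand: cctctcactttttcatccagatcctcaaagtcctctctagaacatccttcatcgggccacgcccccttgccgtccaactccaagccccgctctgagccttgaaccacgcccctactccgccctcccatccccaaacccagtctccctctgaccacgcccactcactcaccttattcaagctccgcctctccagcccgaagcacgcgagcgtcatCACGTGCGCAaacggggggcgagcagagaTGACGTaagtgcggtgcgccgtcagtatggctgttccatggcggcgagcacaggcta
Dnaja3, chr16:4683820-4684119, plus strand: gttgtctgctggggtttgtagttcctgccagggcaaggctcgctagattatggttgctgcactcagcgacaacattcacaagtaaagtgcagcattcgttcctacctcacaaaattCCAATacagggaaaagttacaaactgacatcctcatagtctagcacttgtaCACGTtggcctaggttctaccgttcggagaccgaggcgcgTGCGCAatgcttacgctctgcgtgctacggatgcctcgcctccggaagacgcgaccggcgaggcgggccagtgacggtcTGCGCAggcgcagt
The letters were TGATGNAA, a core of the elements that ATF4 and C/EBP factors bind, TGCAAT, a core that C/EBP factors bind, TGACGT, a core of cAMP response elements, ACGTG, a core of E-boxes and hypoxia response elements, CCAAT, and TGCGCA, a core of the sites of the factor NRF1. Lonp1 held ACGTG on both strands, with matches beginning 36 and 35 bases before the start that overlap in CACGTG, the palindrome TGCGCA beginning 32 bases before it and overlapping the second of these, and TGACGT beginning 7 bases before it. Dnaja3 held CCAAT 134 bases before the start, ACGTG 83 bases before it on the opposite strand, and TGCGCA 43 bases before it and again at base 37 of the transcript. ACGTG and TGCGCA were thus found in both windows, and also in that of Clpx, which did not rise. Among measured members that did not rise, TGACGT was found in the window of Trap1, and CCAAT in those of Yme1l1 and Clpx. Of all 32851 promoter windows of this length, 19.6% held ACGTG, 7.51% TGACGT, 37.4% CCAAT, 7.76% TGCGCA, 8.40% TGCAAT and 3.97% TGATGNAA. TGATGNAA and TGCAAT were not among the letters of either window. TGACGT and TGCGCA were added to the search after these sequences had been seen, and a match of letters is a description of the window. Of the 10 genes, 8 had a window in the table used.

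Hspa9 encodes mortalin, the HSP70 of the matrix, which pulls incoming proteins through the import channel and folds them. Its log2 expression was 12.57, 12.57 and 12.66 in LCM and 12.26, 12.05 and 12.36 in control. The groups did not overlap, but the gene did not pass (log2 difference 0.38, standard error 0.09, 95% interval 0.15 to 0.60, adjusted p = 0.0783 from limma). Without control replicate 2, which was again the lowest, the log2 difference was 0.29 (adjusted p = 0.0512). When the arrays were weighted by their precision it passed, with an adjusted p of 0.0268 from limma. With these weights 12.5% of all genes passed, beside 4.26% without them.

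Trap1 encodes the HSP90 of mitochondria. Its log2 expression was 10.48, 10.46 and 10.52 in LCM and 10.66, 10.29 and 10.78 in control. The LCM values lay between the lowest and the 2 higher controls, and the gene did not pass (log2 difference -0.09, 95% interval -0.39 to 0.21, adjusted p = 0.753 from limma). This value rested on control replicate 2, without which all LCM values lay below both controls, with a log2 difference of -0.24 (95% interval -0.40 to -0.08, adjusted p = 0.0789). Without control replicate 3 the log2 difference was 0.01. The sign of the difference of Trap1 thus changed with which control array was left out.

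Clpp and Clpx encode the subunits of ClpXP, a matrix protease in which the ClpX ring unfolds a substrate and feeds it into the ClpP chamber. Clpp had log2 values of 9.59, 9.77 and 9.77 in LCM and 9.52, 9.16 and 9.55 in control. The lowest LCM value lay just above the highest control value, and the difference did not pass (log2 difference 0.30, 95% interval 0.02 to 0.58, adjusted p = 0.221 from limma). Without control replicate 2 the log2 difference was 0.18. Clpx had log2 values of 9.77, 9.85 and 9.77 in LCM and 9.88, 9.95 and 9.99 in control. All 3 LCM values lay below all 3 control values, within a narrow range (log2 difference -0.15, 95% interval -0.31 to 0.02, adjusted p = 0.316). The log2 difference of Clpp was 0.45 above that of Clpx, and the per-array distance between the genes did not overlap between LCM and control. An exact two-sided permutation test of that distance gave p = 0.1, which is the smallest that 3 arrays against 3 allow. Clpp and Clpx were chosen as a pair after their values were seen. Over all single genes 27.5% did not overlap between the groups, and the share over other pairs of genes was not counted.

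With all arrays, Yme1l1 and Afg3l2, proteases of the inner membrane, had the smallest differences among the 8 members. Yme1l1 encodes the protease that faces the intermembrane space and processes OPA1, the fusion protein of the inner membrane. Its log2 expression was 11.72, 11.67 and 11.61 in LCM and 11.62, 11.78 and 11.65 in control. The groups overlapped (log2 difference -0.02, 95% interval -0.20 to 0.16, adjusted p = 0.937 from limma). Afg3l2 encodes a subunit of the protease that faces the matrix, which matures parts of the mitochondrial ribosome. It had log2 values of 10.62, 10.58 and 10.66 in LCM and 10.59, 10.40 and 10.63 in control, also with overlap (log2 difference 0.08, 95% interval -0.12 to 0.27, adjusted p = 0.667). The upper bounds of these intervals correspond to a 1.12-fold rise for Yme1l1 and a 1.21-fold rise for Afg3l2.

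**Figure D2:**
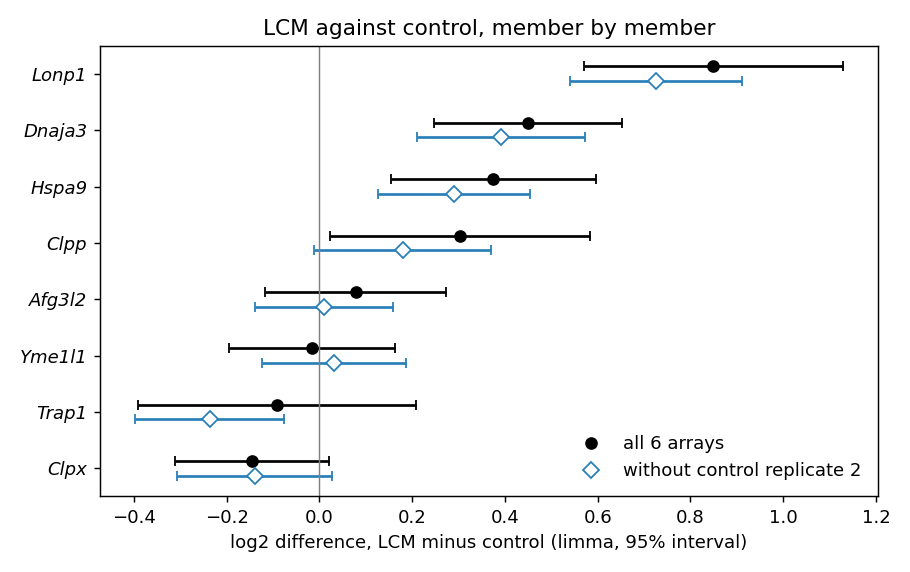
The plot gives the log2 difference, LCM minus control, of each member with its 95% interval from limma, for all 6 arrays (filled circles) and without control replicate 2 (open diamonds). Lonp1, Dnaja3 and Hspa9 lay above 0 in both, Clpp moved from 0.30 to 0.18, and the interval of Trap1 lay below 0 only when control replicate 2 was left out.

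In 5 of the 8 members the groups did not overlap, 4 with LCM above control and Clpx with LCM below, whereas over all genes 12.8% lay wholly above, 14.7% wholly below and 27.5% did not overlap in either direction. Control replicate 2 was the lowest of the 6 arrays for 6 members, and LCM replicate 3 was the highest for 5. The median log2 difference of control replicate 2 from the mean of the other controls was -0.23 over the members and -0.05 over all genes. It was also the array with the lowest correlations to the other controls, at 0.980 and 0.984 over all rows, where the correlations among the LCM arrays were 0.990 to 0.994. The mean log2 expression of 11 genes of mitochondrial content, such as those of citrate synthase and respiratory chain subunits, was 11.67 to 11.71 in LCM and 11.59 to 11.82 in control, with control replicate 2 again the lowest. None of those 11 genes passed (median log2 difference -0.09, 1 higher and 3 lower at an unadjusted p under 0.05 from limma), and without control replicate 2 none rose and Cox4i1 and Hadha fell. With all 6 arrays none rose, and 2 fell with centring, 2 with a mean-variance trend, 3 with array weights and 1 with the filter on dim genes. In these settings 4.31%, 4.92%, 12.5% and 7.47% of the genes tested passed. Without this array Lonp1 and Dnaja3 passed, in a setting where 8.96% of all genes passed, beside 4.26% with all arrays. The median log2 difference of the members was then 0.11, beside 0.19 with all arrays. The part of this array in the members' differences was not tested.

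Lonp1 had the smallest p of the members, and the 5 genes whose log2 values followed it most closely over the 6 arrays were Slc2a1, P2rx3, Ascc2, Tmem87b and Acot2. Their Pearson correlations with Lonp1 ran from 0.998 to 0.999 over 6 arrays that fall into 2 groups, and they are given as a description. Slc2a1, the glucose transporter GLUT1, had a log2 difference of 1.17, P2rx3, an ATP-gated channel, of 1.01, Ascc2 of 0.48 and Acot2, a mitochondrial acyl-CoA thioesterase, of 0.78. Tmem87b, at 0.31, did not pass (adjusted p = 0.0628).

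A list of 9 genes that were described as targets of the CHOP-type UPRmt in mammalian cells shares Hspd1, Hspe1, Dnaja3, Clpp and Yme1l1 with the members. Of the 7 that were measured, Dnaja3 rose and none fell (2 higher and 0 lower at an unadjusted p under 0.05 from limma), with a median log2 difference of 0.005. By the same measures 2.29% of all genes rose and 1.97% fell, and without adjustment 9.25% were higher and 10.3% lower. The 4 that are not members did not pass. They were Pmpcb, a subunit of the peptidase that removes import signals, at -0.04, Ndufb2 of complex I at -0.11, Txn2, the mitochondrial thioredoxin, at 0.03, and Endog, a nuclease, at 0.005. All of these overlapped between the groups. Lonp1 is not in that list.

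Among 11 co-chaperones of mitochondria, none passed by limma, with 3 higher and 1 lower at an unadjusted p under 0.05 and a median log2 difference of -0.02. Hscb, which hands iron-sulfur clusters on to recipient proteins with Hspa9, had a log2 difference of 0.43 (adjusted p = 0.0733). It passed without control replicate 2 (adjusted p = 0.0137), the only one of the 11 to do so, where 8.96% of all genes passed. It also passed with array weights (0.00781) and with the filter on dim genes (0.0495). Dnajc15, a J-domain protein of the import motor, was at -0.42 (adjusted p = 0.0820) and fell past the threshold with centring (0.0467) and with array weights (0.0407). Grpel1 and Grpel2, the nucleotide exchange factors of Hspa9, were at 0.02 and 0.35, and Clpb, a disaggregase of the intermembrane space, was at 0.29, none of which passed.

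Of 12 other mitochondrial proteases and peptidases, Oma1 fell and none rose (1 higher and 2 lower at an unadjusted p under 0.05 from limma, median log2 difference 0.01). Oma1 encodes a stress-activated metalloprotease of the inner membrane that cleaves OPA1 and, in human cells, DELE1, which passes a mitochondrial stress signal to the cytosol. Its mean log2 expression was 9.38 ± 0.10 in LCM and 9.92 ± 0.04 in control (SD, n = 3 each), with no overlap. The log2 difference was -0.53, with a standard error of 0.08 and an adjusted p of 0.0152 from limma. It passed without control replicates 2 and 3 (adjusted p = 0.0165 and 0.0400) and not without control replicate 1 (0.0641) or LCM replicates 1, 2 and 3 (0.0648, 0.0731 and 0.0748). Without control replicate 2, Pitrm1, a matrix peptidase that clears import signals, rose (log2 difference 0.29, adjusted p = 0.0361 from limma), and Oma1 and Spg7 fell (-0.51 and -0.30). Of all genes, 8.96% passed without that array and 4.26% with all arrays. Htra2, a protease of the intermembrane space, had a log2 difference of 0.03, Spg7, the partner of Afg3l2, of -0.19 and Afg3l1 of -0.01, and these did not pass with all arrays.

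Protein import supplies the substrates of the matrix chaperones. Of 11 measured import genes among 19 listed, Timm22 fell and none rose (0 higher and 3 lower at an unadjusted p under 0.05 from limma). The median log2 difference was -0.12, with 8 of the 11 below 0. Over all 14860 genes tested, 8538 lay below 0, with a median log2 difference of -0.03. Timm22 encodes the channel that inserts carrier proteins into the inner membrane and had a log2 difference of -0.46 (adjusted p = 0.0182 from limma). It passed in 1 of the 6 subsets, that without control replicate 2 (adjusted p = 0.00991), and had adjusted p-values from 0.0564 to 0.106 in the others. It was also lost with the replicate block (0.0578) and over every row (0.0555). Without control replicate 2, Timm50 and Tomm7, which serve the inner and outer membrane channels, fell as well (log2 differences -0.35 and -0.66), and 0 import genes rose. In that setting 8.96% of all genes passed, beside 4.26% with all arrays. Timm44, which anchors Hspa9 at the import channel, had a log2 difference of 0.14 and Timm17a of -0.12, and neither passed. The 3 measured genes of the prohibitin scaffold, Phb2, Stoml2 and Opa1, had log2 differences from -0.10 to 0.13, with none past the threshold by limma and 0 at an unadjusted p under 0.05. Phb2, at 0.13, had log2 values of 12.22, 12.21 and 12.31 in LCM and 12.32, 11.64 and 12.38 in control, with control replicate 2 the lowest.

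**Figure D3:**
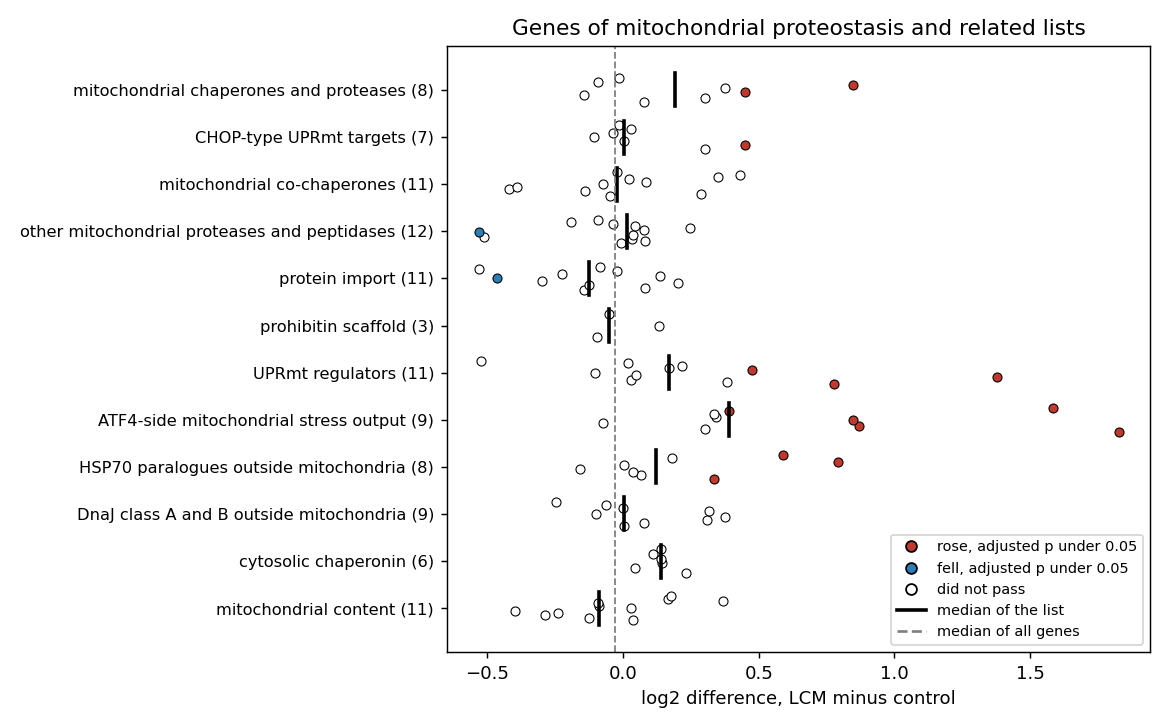
The plot gives the log2 difference, LCM minus control, of each measured gene (circle) in 12 lists, whose number of measured genes stands in brackets. Filled circles passed at an adjusted p under 0.05, thick bars mark the median of a list and the dashed line the median of all genes at -0.03. The genes that rose lay in the members and in the lists of CHOP-type targets, regulators, ATF4-side output and HSP70 paralogues, and those that fell were Oma1 and Timm22.

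Of 11 measured genes among 15 that regulate the UPRmt, Ddit3, Atf4 and Foxo3 rose and none fell (6 higher and 1 lower at an unadjusted p under 0.05 from limma). By the same measures 2.29% of all genes rose and 1.97% fell, and without adjustment 9.25% were higher and 10.3% lower. Ddit3, which encodes CHOP, had a log2 difference of 1.38, and Atf4, the factor of the integrated stress response, of 0.78 (adjusted p = 0.00378 and 0.00732 from limma). The study names Ddit3 among its most upregulated genes on these arrays, and the list was chosen with earlier results of these data known. Ddit3 passed in all 6 subsets that leave out 1 array, and Atf4 in 5, not without LCM replicate 3 (adjusted p = 0.0513). Foxo3, a transcription factor of stress resistance, was at 0.48 (adjusted p = 0.0446) and passed in 1 of the 6 subsets, that without control replicate 2 (adjusted p = 0.0158, others 0.105 to 0.175). It was also lost with centring (0.0554), the replicate block (0.101) and over every row (0.103). Atf5, the factor held to be the mammalian counterpart of the worm's UPRmt regulator, had log2 means of 10.42 ± 0.05 in LCM and 10.04 ± 0.18 in control (SD, n = 3 each). It did not pass (log2 difference 0.38, standard error 0.10, adjusted p = 0.0895), although its groups did not overlap. Atf5 passed without control replicate 3 (adjusted p = 0.0396 from limma) and with array weights (0.0395), where 2.36% and 12.5% of all genes passed. Cebpb, a partner of CHOP, was at 0.03, Ubl5, the mouse counterpart of another worm regulator, at -0.52 (adjusted p = 0.120), Dele1 at 0.05 and the mitochondrial deacetylase Sirt3 at 0.02. Hsf1, the heat shock factor, was not measured.

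Of 9 measured genes among 12 that ATF4 raises during mitochondrial stress, 5 rose and none fell (8 higher and 0 lower at an unadjusted p under 0.05 from limma). By the same measures 2.29% of all genes rose and 1.97% fell, and without adjustment 9.25% were higher and 10.3% lower. Their median log2 difference was 0.39, beside 0.19 for the chaperones and proteases (0.35 and 0.11 without control replicate 2), and the difference between these lists was not tested. The study names Aldh1l2 and Trib3 among its most upregulated genes on these arrays. Both lists were chosen with earlier results of these data known. The 5 that rose were Aldh1l2, Mthfd2 and Shmt2, mitochondrial enzymes of folate metabolism, Trib3, a pseudokinase, and Chac1, which degrades glutathione. Mthfd2 was at 0.85, a log2 difference like that of Lonp1, and Shmt2 at 0.39, like that of Hspa9. In subsets that leave out 1 array, between 2 and 5 of the 9 passed, with the fewest without LCM replicate 3. Shmt2 was also lost with centring (adjusted p = 0.0677), the replicate block (0.0878) and over every row (0.0869), and Mthfd2 over every row (0.0637). Fgf21, a hormone secreted by cells under mitochondrial stress, was at -0.07 (adjusted p = 0.658). It was dim, at a mean log2 expression of 6.10 in LCM and 6.17 in control, near the lower quartile of the arrays (5.99 to 6.04). ATF4 and CHOP targets respond to other stresses as well, so these values do not set mitochondrial stress apart from them.

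Paralogues in other compartments were set beside the mitochondrial chaperones. Hspa5, the HSP70 of the endoplasmic reticulum known as BiP, rose with a log2 difference of 0.79 (adjusted p = 0.0151 from limma), where Hspa9 had 0.38. The log2 difference of Hspa9 was -0.42 relative to that of Hspa5, and the per-array distance between both genes did not overlap between LCM and control. Of 8 measured HSP70 genes outside mitochondria, Hspa5, Hyou1 and Hspa13 rose and none fell (4 higher and 0 lower at an unadjusted p under 0.05 from limma). By the same measures 2.29% of all genes rose and 1.97% fell, and without adjustment 9.25% were higher and 10.3% lower. Hyou1 and Hspa13 also belong to the endoplasmic reticulum, and the remaining 5, Hsph1, Hspa4, Hspa4l, Hspa2 and Hspa1a, had log2 differences from -0.16 to 0.18. Hspa1a was dim, at a mean log2 expression of 5.21 in LCM and 5.14 in control, below the lower quartile of the arrays. Hspa5, Hyou1 and Hspa13 passed in 3, 2 and 1 of the 6 subsets that leave out 1 array, always including that without control replicate 2 and in none of those without an LCM array. Hspa13 was also lost with quantile normalization again (adjusted p = 0.0572), centring (0.0915), the replicate block (0.122) and over every row (0.102), and Hyou1 over every row (0.0643). Hsp90b1, the HSP90 of the endoplasmic reticulum, had a log2 difference of 0.29 (adjusted p = 0.0842), and Trap1 had -0.38 relative to it, again without overlap. Hsp90b1 passed with a mean-variance trend (adjusted p = 0.0431 from limma) and with array weights (0.0265), where 4.92% and 12.5% of all genes passed. Dnaja3 had a log2 difference 0.44 above that of the cytosolic Dnaja1, which was at 0.01 and below 0 with quantile normalization again (-0.03) and with centring of the arrays (-0.04), but the distance between this pair overlapped between the groups. For Hspa9 with Hspa5, Trap1 with Hsp90b1 and Clpp with Clpx the exact permutation p was 0.1 each (0.133 after adjustment over the 4 pairs compared), and for Dnaja3 with Dnaja1 it was 0.2, so none could pass by this test, whose smallest p is 0.1 with 3 arrays against 3. No other test of these distances was run. How often such a distance does not overlap was not counted over other pairs of genes, and 27.5% of single genes did not overlap. The separation of these pairs is therefore given as a description. The cytosolic chaperonin, whose mitochondrial relative is encoded by Hspd1, had 6 measured subunits with log2 differences from 0.04 to 0.23, with none past the threshold by limma and 0 at an unadjusted p under 0.05. Their median log2 difference was 0.14 with all arrays, 0.02 without control replicate 2 and 0.02 with array weights.

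**Figure D4:**
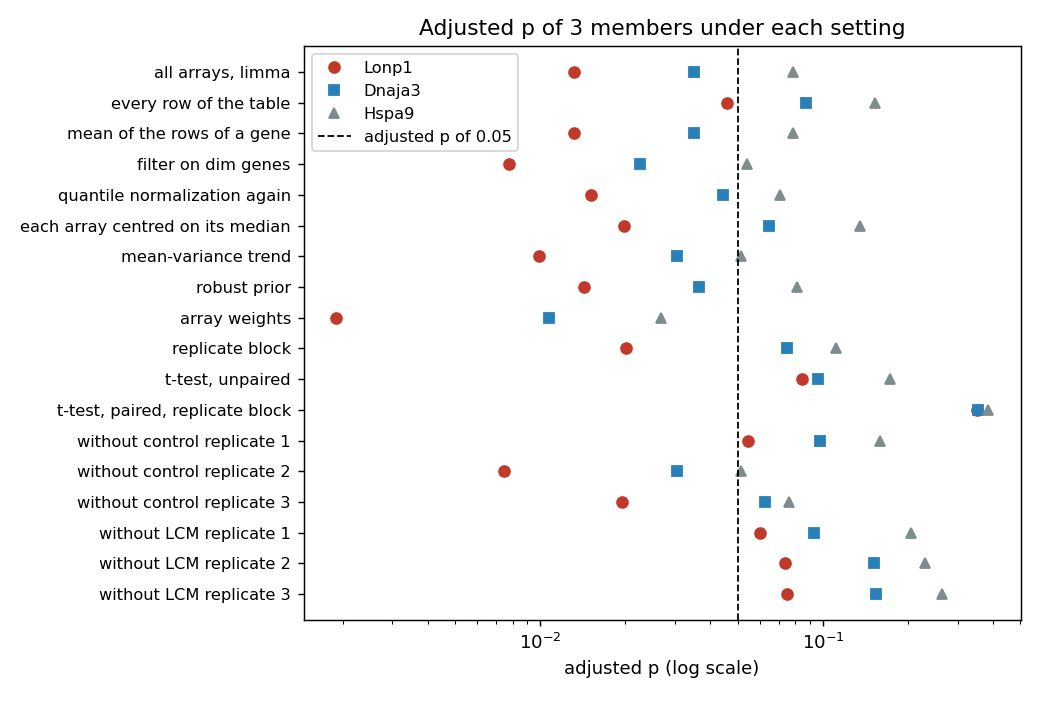
The plot gives the adjusted p (log axis) of Lonp1, Dnaja3 and Hspa9 under each setting of the analysis, with the dashed line at 0.05. Lonp1 lay left of the line with all arrays and in all settings except the methods' t-test, its unpaired form and the removal of control replicate 1 or of an LCM array. Hspa9 lay left of it only with array weights.

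Of 8 adipocyte markers, 7 were bright in both groups, and Lep, which encodes leptin, was dim, at a mean log2 expression of 5.50 in LCM and 5.83 in control, below the lower quartile of the arrays (5.99 to 6.04). The mean over the 8 was 11.17 to 11.30 in LCM and 11.69 to 11.75 in control, with 7 of them not overlapping. Retn, Adipoq and Cidec fell and none rose (0 higher and 8 lower at an unadjusted p under 0.05 from limma), and the median log2 difference was -0.44. Of all genes, 14.7% lay wholly below control, 1.97% fell past the threshold and 10.3% were lower without adjustment. Between 0 and 4 of them passed when 1 array was left out, most without control replicate 2 (Retn, Plin1, Cidec and Adipoq) and 0 without LCM replicate 1 or 3. Without control replicate 2, 8.96% of all genes passed, beside 4.26% with all arrays. In cultures measured as a whole, fewer adipocytes and less RNA per adipocyte cannot be told apart. Over 6 markers of pre-adipocytes the mean was 10.73 to 10.89 in LCM and 10.78 to 10.93 in control, with none past the threshold by limma and 2 lower at an unadjusted p under 0.05. The 6 measured markers of B lineage leukemia cells had means of 6.71 to 6.84 in LCM and 6.73 to 6.90 in control, with none past the threshold and 0 at an unadjusted p under 0.05. Of 5 macrophage markers, Cd68, a lysosomal protein found in many cells, rose with a log2 difference of 0.44 (adjusted p = 0.0446, and passed in 2 of the 6 subsets, those without control replicates 2 and 3), and the others did not pass. The part of the lower adipocyte markers in the values of the chaperones and proteases was not tested.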

How the data were processed

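RNA of 3T3-L1 adipocytes was hybridized to Affymetrix arrays, 3 with LCM and 3 in regular media. The authors deposited log2 expression values made with RMA (background correction, quantile normalization and a summary over the probes of a transcript), 1 column for each array, not pooled. Rows were named through the annotation of an Affymetrix mouse exon array (gene version), whereas the methods name a Mouse Gene ST array. Which was used is not settled, and the naming of rows rests on that annotation. The RMA version, its settings and the genome build are not stated in the sources read, and transcripts are therefore given without coordinates. Of 23332 rows, 14996 had a single gene in the platform annotation, 1019 had several and 7317 had none listed. The row with the highest mean stood for each of 14860 genes. All 10 members are in the RefSeq gene table (GRCm38.p6), and each of the 8 measured members had 1 row.

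Groups were compared by a two-sided limma 3.58.1 fit (lmFit, then eBayes) without a block in R 4.3.3, with Benjamini-Hochberg adjustment over all 14860 genes and a threshold of 0.05. No test is named for the arrays in the study's methods, which give paired t-tests for experiments in general. Pairs of genes were compared by an exact permutation test of the per-array difference. The text names all members, the members of other lists that passed (up to 4 by adjusted p), the factors Atf5, Atf4 and Ddit3 and the paralogues compared. Other genes of those lists were named after their values were seen. The members and lists were chosen with earlier results of these data known. The 17 alternatives were every row of the table, the mean of a gene's rows, a filter on the dimmest 25% of genes, quantile normalization again, centring on the array median, array weights, a robust prior, the replicate block, a mean-variance trend, the methods' t-test (paired), its unpaired form and each array left out. The comparison procedure was tested on simulated data. The labels call the arrays biological replicates, and their number limits the precision. Figures were drawn with matplotlib 3.10.9 in Python 3.11.15, with pandas 2.3.3.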

Additional observations from a re-analysis of the deposited data

How the results depend on the processing

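With the 6 subsets that leave out 1 array, 0 to 2 members rose and 0 fell, 39 to 680 genes rose and 21 to 652 fell, and the median log2 difference of the members ran from 0.11 (without control replicate 2) to 0.25 (without control replicate 3). The numbers of genes that rose and fell were lowest without LCM replicate 3 and highest without control replicate 2. Over every row of the table, 1 member rose, and 173 rows rose and 102 fell. With each array centred on its median, 1 member rose, and 232 genes rose and 408 fell. Array weights gave 889 genes that rose and 975 that fell. The unpaired form of the methods' t-test with adjustment gave 0 members and 104 genes that rose and 66 that fell. Where a setting changed a call, the cause was not tested, apart from the fewer arrays or the more rows that a setting holds by its construction.

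The arrays share replicate numbers between groups. The deviations of same-numbered arrays from their group means correlated at -0.23, 0.06 and 0.11 for replicates 1, 2 and 3. LCM replicates 1 and 2 correlated best with control replicate 2 and LCM replicate 3 with control replicate 1. With 3 arrays per group the deviations constrain each other, so these correlations cannot decide whether the numbers mark pairs. The main fit took no pairs because no test is named for the arrays, and the paired forms were run as alternatives. With the replicate block, 1 member rose, Lonp1 (adjusted p = 0.0201), while Dnaja3 had an adjusted p of 0.0749, and 173 genes rose and 151 fell. In the methods' t-test, paired with this block, 0 members and 0 genes rose or fell, with 1761 genes at an unadjusted p under 0.05.

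Differences near 0 of single genes changed sign in 8 cases. The log2 difference of Yme1l1 was 0.0285 with array weights and ran from -0.0467 (without control replicate 1) to 0.0317 (without control replicate 2) when 1 array was left out, and was 0.0122 without LCM replicate 3. That of Trap1 ran from -0.236 (without control replicate 2) to 0.0105 (without control replicate 3). That of Dnaja1 was -0.0253 with quantile normalization again, -0.0440 with centring and -0.0910 to 0.106 with 1 array left out, below 0 without control replicate 3 and without LCM replicate 1. Of the 136 values of single members under an alternative, 115 kept their direction and side of the threshold, 16 kept the direction and lost the call, and 1 (Hspa9 with array weights) gained it. Of 17 genes outside the members that passed and were followed through the alternatives, 9 lost the call over every row, 6 with the replicate block, 4 with centring, 2 with quantile normalization again, 17 in the methods' t-test and 14 in its unpaired form. List medians near 0 also changed sign. That of the CHOP-type targets was -0.005 with quantile normalization again, -0.04 with centring and -0.01 with array weights, and ran from -0.02 (without control replicate 2) to 0.03. That of the other proteases was -0.01, -0.04 and -0.07 in these settings and ran from -0.06 (without control replicate 2) to 0.06, and that of the co-chaperones ran from -0.05 to 0.03 (without LCM replicate 1). The differences within the 4 pairs of genes kept their sign in every alternative run for them. Hspd1 and Hspe1 could not be placed under any alternative.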
